A study of Mus musculus with 2 samples.

Results

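MHC class I presentation was read in 10 genes of sorted mouse microglia, chosen by name for their part in the pathway: the heavy chain genes H2-K1, H2-D1 and H2-T23, the light chain gene B2m, the peptide loading genes Tap1, Tap2 and Tapbp, the immunoproteasome genes Psmb8 and Psmb9, and the regulator gene Nlrc5. All 10 were found among the 53801 genes of each count file. The counts came from 2 sham libraries, 1 mouse each, of hemizygous Cx3cr1(CreER/wt) mice on a C57BL/6 background, in which one copy of Cx3cr1 carries a tamoxifen-inducible Cre and whose Cx3cr1 promoter is active in border macrophages as well as microglia. Both mice had received tamoxifen at 75 mg/kg/day for 4 days, had sham surgery 14 days after the first injection and gave cells 3 days later. The series describes male mice of 8 to 10 weeks, while the study's methods give an older range and both sexes, and the treatment of both samples is labelled none. The cells were sorted from the left hemisphere as CD11c–Ly6G–CD11b+CD45low, a gate for microglia. The stroke arm was not analysed here, so the data give baseline levels and the spread between 2 mice, with no comparison of conditions.

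MHC class I molecules show peptides from inside the cell to CD8 T cells. The proteasome cuts proteins into peptides, and in cells that have seen interferon its catalytic subunits are partly replaced by immunoproteasome subunits. TAP, a pump made of TAP1 and TAP2, moves the peptides into the endoplasmic reticulum, where tapasin helps to load them on a heavy chain paired with β2-microglobulin. NLRC5 is the transactivator of class I genes, as CIITA is of class II genes. Resting microglia are known for low surface class I, which interferon raises.

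Counts assigned to genes summed to 23381026 for the first mouse (library 1) and 41142609 for the second (library 2). A count of 0 allows 3 counts, or 0.128 counts per 1000000 assigned counts (CPM) in library 1 and 0.0729 CPM in library 2. The 9 microglia markers were counted in both libraries and summed to 36317 and 41306 CPM. The 10 neutrophil markers had a sum of 4461 CPM in library 1 against 60915 CPM in library 2, and all 10 were more than 2-fold higher in library 2. T cell markers summed to 0.171 and 2.82 CPM. Cd3e had 0 counts in both libraries, while Cd3d had 3 and 109 counts. The 5 endothelial markers summed to 23.1 and 16.9 CPM, with 1 count of Cldn5 in each library. NK cell markers summed to 1.58 and 13.6 CPM, mostly Nkg7. Markers of basophils or mast cells summed to 0.0855 and 165 CPM and of choroid plexus epithelium to 22.6 and 364 CPM. Monocyte markers summed to 676 and 3337 CPM, but their members were not alike. Chil3 (455 and 2901 CPM) and Ly6c2 (90.3 and 302 CPM) were more than 2-fold higher in library 2. Ccr2 was near level (65.1 and 76.3 CPM), and Plac8 (63.7 and 56.7 CPM) and Vcan (2.48 and 1.56 CPM) were lower. Border macrophage markers summed lower in library 2, from 595 to 222 CPM. In such bulk samples, fewer cells of a type and less RNA per cell cannot be told apart. Intervals below are 95% and cover counting error only, since amplified reads are not independent molecules.

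In all, 8 of the 10 genes lie in the MHC region of chromosome 17 (GRCm38), and RefSeq promoter windows of 300 bases (GRCm38.p6) were at hand for 8 of the 10 genes, all but Tap2 and Nlrc5. Those of the heavy chain genes H2-K1, H2-D1 and H2-T23 and of B2m are shown, and that of Psmb9 because it overlaps the window of Tap1. Of these, H2-K1 and H2-D1 hold the same short motifs in a shared arrangement. Capitals mark matches, on either strand, to an NF-κB-like motif (GGGA and CCC with 3 bases of any kind between them), to TGACGC (a CRE-like motif of class I promoters), to CCAAT (the NF-Y box) and to an interferon-response-like motif (GAAA, 2 bases of any kind, GAAA).
H2-K1, chr17:34000298-34000597, minus strand: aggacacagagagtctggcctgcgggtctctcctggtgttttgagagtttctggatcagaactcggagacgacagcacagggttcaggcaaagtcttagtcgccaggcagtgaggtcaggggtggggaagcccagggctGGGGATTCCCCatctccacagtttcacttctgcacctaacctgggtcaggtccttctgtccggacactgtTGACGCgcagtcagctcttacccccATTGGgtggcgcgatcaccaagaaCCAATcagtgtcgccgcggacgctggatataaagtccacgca
H2-D1, chr17:35262844-35263143, plus strand: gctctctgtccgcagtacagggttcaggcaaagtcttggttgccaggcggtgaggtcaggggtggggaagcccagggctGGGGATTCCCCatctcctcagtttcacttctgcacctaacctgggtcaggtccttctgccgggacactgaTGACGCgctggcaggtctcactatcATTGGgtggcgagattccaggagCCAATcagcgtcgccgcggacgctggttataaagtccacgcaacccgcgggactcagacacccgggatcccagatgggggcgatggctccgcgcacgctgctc
B2m, chr2:122147437-122147736, plus strand: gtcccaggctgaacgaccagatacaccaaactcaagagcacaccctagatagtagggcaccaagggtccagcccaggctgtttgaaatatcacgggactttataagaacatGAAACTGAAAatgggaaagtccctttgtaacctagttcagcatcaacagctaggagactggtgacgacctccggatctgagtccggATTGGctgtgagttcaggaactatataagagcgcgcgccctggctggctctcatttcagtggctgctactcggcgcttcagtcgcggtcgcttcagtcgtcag
H2-T23, chr17:36032652-36032951, minus strand: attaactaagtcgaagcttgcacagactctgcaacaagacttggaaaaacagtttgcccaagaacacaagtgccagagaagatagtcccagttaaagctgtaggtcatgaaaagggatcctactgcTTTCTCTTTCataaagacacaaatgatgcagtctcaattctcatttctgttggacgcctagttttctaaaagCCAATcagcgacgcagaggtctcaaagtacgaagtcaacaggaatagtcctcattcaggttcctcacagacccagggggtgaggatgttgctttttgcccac
Psmb9, chr17:34187281-34187580, minus strand, shared with Tap1: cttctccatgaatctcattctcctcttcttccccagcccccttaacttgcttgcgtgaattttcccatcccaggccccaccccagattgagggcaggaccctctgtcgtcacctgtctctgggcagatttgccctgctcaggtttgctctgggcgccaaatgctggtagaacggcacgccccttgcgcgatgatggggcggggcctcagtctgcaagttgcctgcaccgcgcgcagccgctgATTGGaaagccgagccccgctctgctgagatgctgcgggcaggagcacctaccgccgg

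The windows of H2-K1 and H2-D1 carried the same motifs in the same order. In both, 70 bases separated the first bases of the NF-κB-like and TGACGC matches, and the first CCAAT match began 25 bases after TGACGC. The second CCAAT match began 24 bases later in H2-K1 and 23 bases later in H2-D1. The NF-κB-like motif matched both strands of this site, 1 base apart, and RefSeq gives H2-K1 a pair of starts 14 bases apart, of which the upstream one was used. The NF-κB-like motif was found in 5.40% of 27025 promoter windows, TGACGC in 7.50% and CCAAT in 37.9%, and among the 8 windows of the class I genes the first pair of these motifs was found in H2-K1 and H2-D1 alone. The interferon-response-like motif was found in B2m, 139 bases upstream of the start, and in H2-T23, 124 bases upstream, against 3.49% of all windows. CCAAT was found in 7 of the 8 windows, Psmb8 being the one without it. Psmb9 and Tap1 point away from each other with starts 226 bases apart, so their windows shared 275 bases. Only exact matches to these patterns were sought, so a lower-case stretch may still hold a related site of other bases or spacing. These matches describe the letters in the windows and show nothing about binding.

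Heavy chain and light chain RNA was among the most abundant in these cells. B2m, the light chain of every classical class I molecule (chromosome 2 of GRCm38, 122147686 to 122153083), was at 2101 CPM (49116 counts) in library 1 and at 3438 CPM (141455 counts) in library 2. Its mean was 2769 ± 946 CPM (SD, n = 2 libraries). H2-D1, a classical heavy chain (chromosome 17, 35262730 to 35267499), had 1420 and 2282 CPM, or 1851 ± 609 CPM (SD, n = 2). H2-K1, the other classical heavy chain listed here (chromosome 17, 33996017 to 34000333), had 514 and 606 CPM, or 560 ± 65.2 CPM (SD, n = 2). H2-T23, which encodes the Qa-1 heavy chain that CD94/NKG2 receptors read (chromosome 17, 36029773 to 36032855), had 268 and 386 CPM, or 327 ± 84.0 CPM (SD, n = 2). All 4 were higher in library 2, H2-K1 by the smallest fold (1.18) and B2m by the largest (1.64). Together they took 0.430% of all counts in library 1 and 0.671% in library 2.

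Peptide supply and loading genes covered a range of levels below those of B2m and H2-D1. Tapbp, which encodes tapasin (chromosome 17, 33915899 to 33929288), was at 638 and 606 CPM, the closest pair of the 10 on the CPM scale, though Tap2 was closer under TMM and DESeq2 scaling. Tap1 (chromosome 17, 34187553 to 34197225) had 2441 and 2435 counts, which are 104 and 59.2 CPM because library 2 was deeper. Tap2, its partner in the peptide pump (chromosome 17, 34203527 to 34216321), had 114 and 102 CPM. Tap2 thus differed little between the mice while Tap1 was 1.76-fold lower in library 2 (interval 1.67 to 1.87). Psmb8, the immunoproteasome subunit that replaces Psmb5 (chromosome 17, 34197721 to 34201454), had 162 and 179 CPM. Psmb9, which replaces Psmb6 (chromosome 17, 34181988 to 34187764), had 71.0 and 116 CPM. The transactivator gene Nlrc5 (chromosome 8, 94434356 to 94527272) was the lowest, at 7.19 CPM (168 counts) in the first mouse and 2.89 CPM (119 counts) in the second.

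Levels of different genes were compared per kb of the longest coding transcript. On this scale the order from high to low was B2m, H2-D1, H2-K1, H2-T23, Tapbp, Psmb8, Psmb9, Tap2, Tap1 and Nlrc5. B2m had 2443 CPM per kb in library 1 and 3998 in library 2, and Nlrc5 0.948 and 0.382. B2m was at place 21 of the 13439 counted genes with a known length in library 1 and at place 13 in library 2, where counted means at least 10 counts in both libraries. H2-D1 was at places 75 and 54, and H2-K1 at places 181 and 164. At the low end Nlrc5 stood above 17.9% of these genes in library 1 and 11.2% in library 2. Among neighbours in the order, 2 pairs overlapped between the libraries and so did not differ beyond their spread: H2-T23 with Tapbp, and Tap2 with Tap1. The 3 heavy chains and B2m did not overlap with one another. Per kb of the exon union these pairs came apart, with Tapbp above H2-T23 and Tap2 above Tap1 in both libraries, and the pairs that overlapped were H2-K1 with Tapbp and Tap2 with Psmb9.

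**Figure D1:**
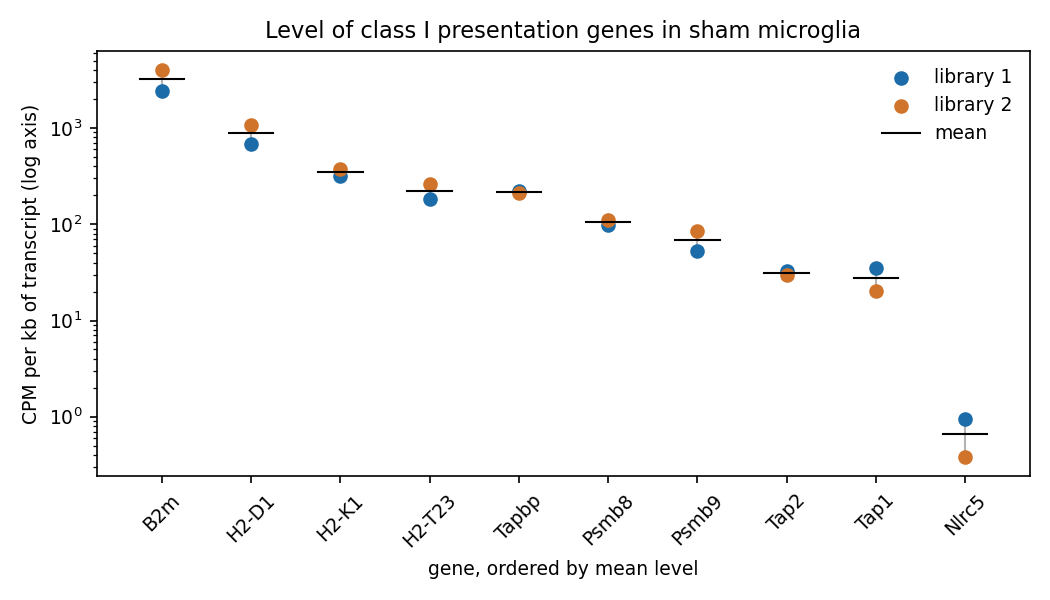
Level of each of the 10 genes in CPM per kb of transcript (log axis), with a point for each library and a bar at their mean. B2m lies at 2443 and 3998 and Nlrc5 at 0.948 and 0.382, and the points of H2-T23 span those of Tapbp.

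Ratios within a library need no scaling between libraries. They were not adjusted for the trend with transcript length given below, which can shift ratios of genes unlike in length. Per kb, B2m was 2.08 times the summed heavy chains H2-K1, H2-D1 and H2-T23 in library 1 and 2.32 times in library 2. H2-D1 made up 57.5% and 63.0% of that heavy chain sum, H2-K1 27.0% and 21.7%, and H2-T23 15.5% and 15.2%. The ratio of B2m to H2-D1 was the closest match between mice among the heavy chain ratios, at 3.62 (3.57 to 3.67) in library 1 and 3.68 (3.65 to 3.71) in library 2. H2-D1 stood at 2.13 times H2-K1 in library 1 and at 2.90 times in library 2. The size of these ratios rests on the transcript length used: with the union of all annotated exons, H2-D1 was 3.72 times H2-K1 on average in place of 2.52.

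The immunoproteasome subunits differed in how they stood to the constitutive subunits that they replace. Psmb8 was close to Psmb5, at 1.20 times its level in library 1 (1.13 to 1.27) and 1.22 times in library 2 (1.17 to 1.27). With the exon union the mean ratio fell to 0.582, so which of the pair is higher depends on the length used. Psmb9 was at 0.190 times Psmb6 in library 1 (0.180 to 0.201) and 0.277 times in library 2 (0.267 to 0.286). Psmb10, the third immunoproteasome subunit, was at 6.96 and 6.21 times Psmb7. Psmb7 was the lowest of the 14 constitutive core genes, at 18.9 and 20.5 CPM, and 24.1% of its 75-base windows also occur in transcripts of Nek6. Psmb5 shared 40.0% of its windows with other genes. Reads of such windows could be lost or split in counting, so the ratios to Psmb5 and Psmb7 are uncertain.

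Tap1 and Psmb9, the neighbours with overlapping promoter windows, did not keep a fixed ratio. Psmb9 was 1.49 times Tap1 per kb in library 1 (1.39 to 1.58) and 4.27 times in library 2 (4.07 to 4.49). Genes like Psmb9 in GC content and length had a median log2 ratio between libraries of 0.18, and those like Tap1 −0.72. The part of this trend in the shift was not tested. Psmb9 and Tap1 also overlap in 212 exon bases on opposite strands and share 138 windows of 75 bases, and whether the counting used strand is not given in the sources used here. Tap2 went from 0.933 times Tap1 in library 1 (0.883 to 0.986) to 1.49 times in library 2 (1.41 to 1.56), but with the exon union as length Tap2 was the higher in both libraries, at 1.57 and 2.51 times Tap1. Nlrc5 was below the class II transactivator gene Ciita in both libraries, at 0.663 (0.537 to 0.817) and 0.555 times its level (0.435 to 0.705). With the exon union the mean ratio rose from 0.609 to 0.862, so the size of this difference depends on the length used.

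**Figure D2:**
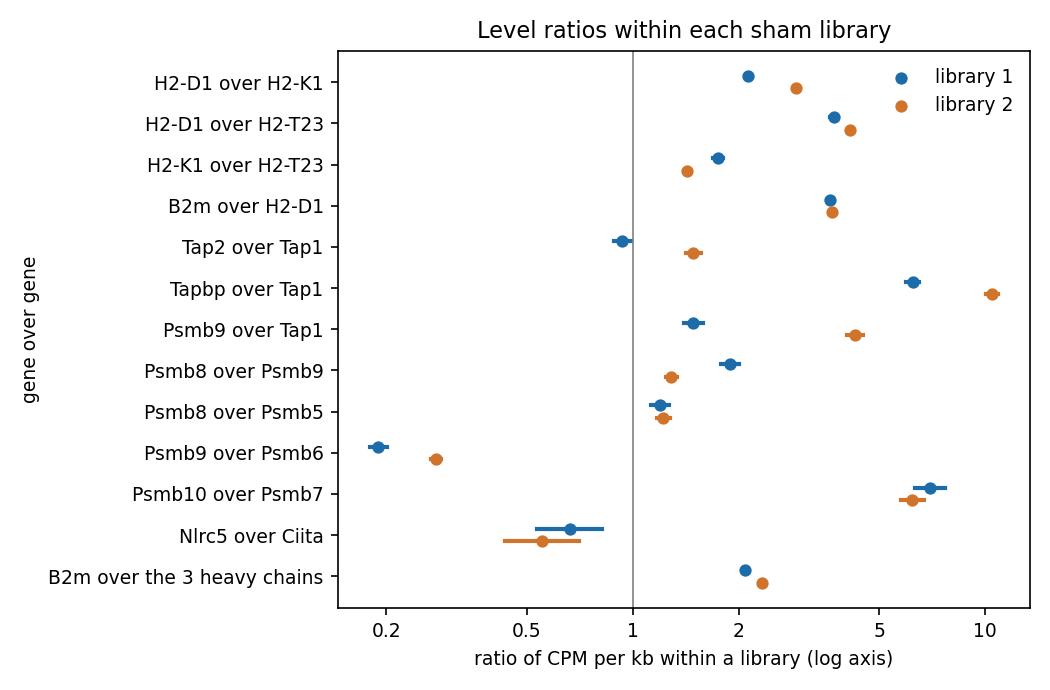
Ratio of CPM per kb between named gene pairs within each library (log axis), with 95% counting intervals as bars where they were computed. The ratios B2m over H2-D1 and Psmb8 over Psmb5 coincide between libraries, while Psmb9 over Tap1 lies at 1.49 in library 1 and 4.27 in library 2.

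Between the 2 mice, 1 of the 10 genes was more than 2-fold lower in library 2, against 25.9% of 13445 counted genes, and 0 of 10 were more than 2-fold higher, against 5.74%. The gene past 2-fold was Nlrc5, with a log2 ratio of library 2 to library 1 of −1.31 (−1.66 to −0.97). The others ran from −0.82 for Tap1 to 0.71 for B2m. H2-D1 was at 0.68, Psmb9 at 0.70, H2-T23 at 0.53, H2-K1 at 0.24, Psmb8 at 0.15, Tapbp at −0.07 and Tap2 at −0.15. On the CPM scale each interval excluded 0, and with 2 mice the spread between them is the error of every mean. Of the 10 genes, 6 were higher and 4 lower in library 2, against 38.5% of counted genes higher, and TMM scaling, which added 0.26 to every log2 ratio, made this 8 and 2 against 49.8% higher and 50.2% lower. With TMM scaling 1 of the 10 was still more than 2-fold lower, Nlrc5, against 19.4% of genes, and 0 were more than 2-fold higher, against 8.87%. The ratio of Tap2 and that of Tapbp changed sign with that scaling. After the adjustment for GC content and length described next, 9 were higher and 1 lower, against 49.8% higher, with Tapbp at 0.64. Leaving the neutrophil markers out of the totals, an alternative chosen after seeing the data, added 0.08, which brought Tapbp to 0.0097 (−0.020 to 0.039) and Tap2 to −0.064 (−0.13 to 0.0069), both within counting error of 0, and the part of neutrophil RNA in these differences was not tested.

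Among the 10 genes the direction of the difference went with transcript length. Over all counted genes, the median log2 ratio was −0.009 for transcripts of 53 to 1002 bases. It was 0.19 for those of 1003 to 1510 bases and −1.08 for those of 6332 bases or more. The 6 shortest of the 10 genes, from B2m with 860 bases to H2-D1 with 2102, were higher in library 2, and the 4 longest, from Tapbp with 2898 to Nlrc5 with 7578, were lower. B2m went against genes alike in GC content and length, whose median was −0.65. Nlrc5 lay close to the median of genes alike in GC content and length, which was −1.35, so its adjusted ratio was 0.04. Tap1 moved from −0.82 to −0.10 when adjusted in this way. The adjustment raised Tap2 to 1.05 and B2m to 1.37, which put both more than 2-fold higher in library 2, against 9.34% of genes, and 0 lower, against 12%. H2-D1 went from 0.68 to 0.72 and Psmb9 from 0.70 to 0.52.

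**Figure D3:**
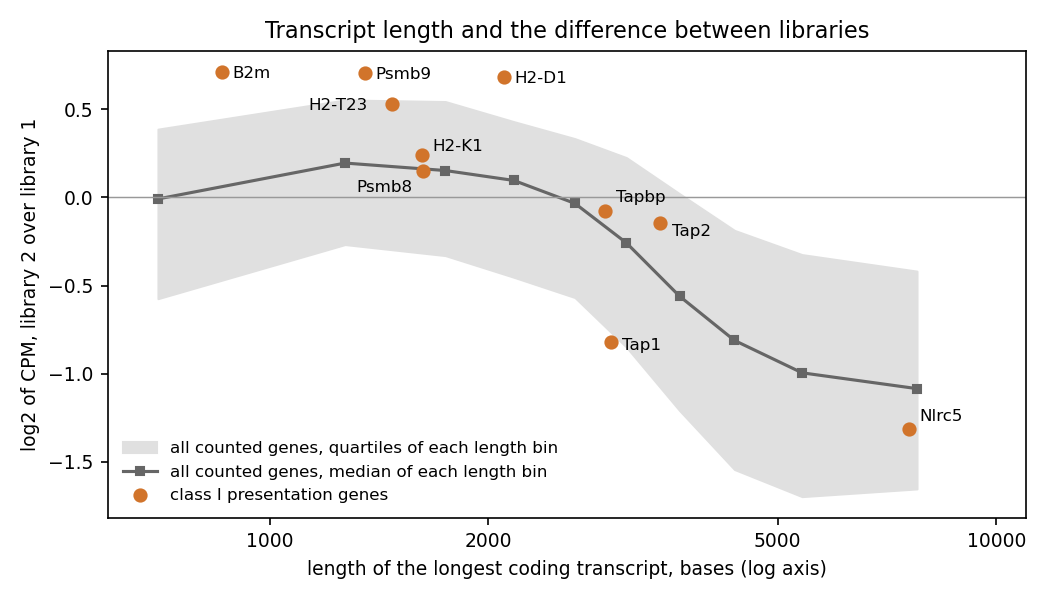
Log2 ratio of CPM between libraries against transcript length (log axis) for the 10 genes, over the median and quartiles of all counted genes in 10 bins of length, drawn at each bin's median length. The median is −0.009 in the first bin and falls from 0.19 in the second to −1.08 in the last. B2m, Psmb9 and H2-D1 lie above the upper quartile at their lengths.

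**Figure D4:**
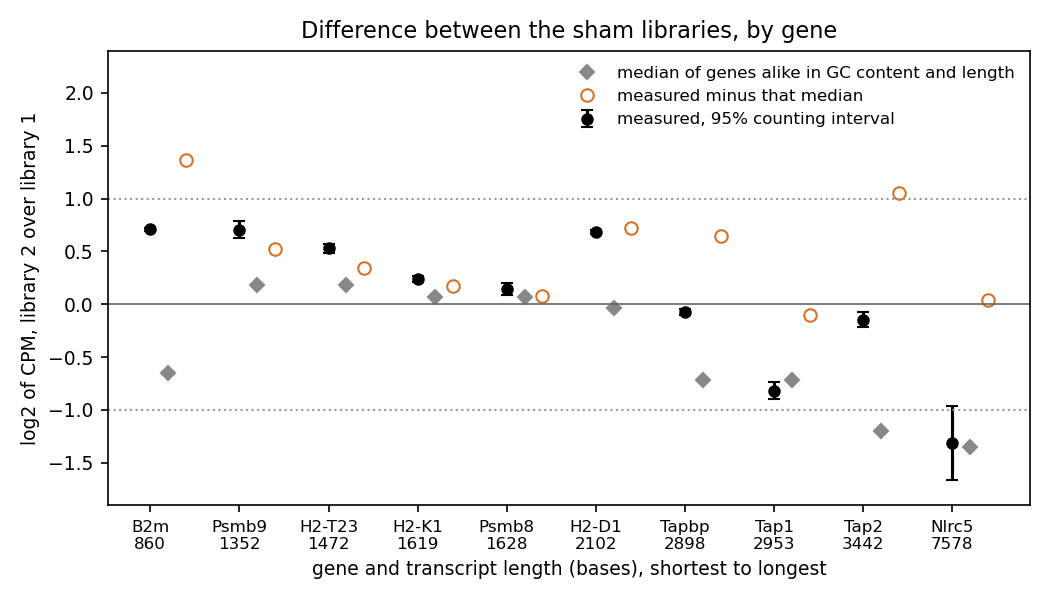
Log2 ratio of CPM, library 2 over library 1, for each gene from the shortest to the longest transcript, with its 95% counting interval, the median of genes alike in GC content and length, and the difference of the 2. Dotted lines mark 2-fold. Nlrc5 moves from −1.31 to 0.04 after the adjustment and Tap2 from −0.15 to 1.05.

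Near-identical copies and overlapping genes limit some of these counts. Of the 75-base windows of the longest coding transcript, 13.1% in H2-T23, 7.10% in H2-D1 and 1.55% in H2-K1 also occur in transcripts of other genes, and H2-D1 was among the partners of both H2-T23 and H2-K1. B2m and Nlrc5 shared none. Tapbp shared 17.5%, mostly with the overlapping gene Gm19412, and Tap2 8.97%, with the overlapping genes Gm15821 and Gm20496. Of the bases in the exon union, 29.0% in Tapbp, 18.5% in Tap2 and 14.7% in Psmb8 lie under exons of another gene. Of 17 other class I and class I-like genes, 6 shared none and 7 shared more than H2-T23, with H2-T22 the highest at 26.1%.

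Of 17 further class I and class I-like genes, 13 were counted, and 1 of the 13 was more than 2-fold higher in library 2, against 5.74% of all counted genes. That gene was H2-Q10, which encodes a secreted class I molecule known from liver, with 172 and 822 counts. The highest were Hfe, a regulator of iron uptake, with 378 ± 44.2 CPM (SD, n = 2), and Fcgrt, the neonatal Fc receptor, with 293 ± 3.09 CPM (SD, n = 2), and both of their proteins pair with β2-microglobulin. H2-M3, which presents formylated peptides, had 72.0 and 110 CPM, and Mr1, which presents vitamin B metabolites, 21.3 and 28.9 CPM. H2-T3 had no counts in either library. H2-Bl had 0 and 7 counts, and H2-Q2 had 1 and 6.

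Other genes of class I processing, among them chaperones and peptidases, were read next. Of 10 such genes, all were counted, 4 were more than 2-fold lower in library 2, against 25.9% of all counted genes, and 0 were more than 2-fold higher, against 5.74%. Calr, the calreticulin gene, had 988 CPM in library 1 and 333 in library 2. Canx, the calnexin gene, had 811 and 305 CPM. Erap1, the peptidase that trims class I peptides, had 114 and 30.8 CPM, and Lnpep, a related endosomal peptidase, had 23.4 and 8.85 CPM. Pdia3, the ERp57 partner of tapasin, was level at 1759 and 1845 CPM, and the proteasome activator genes Psme1 and Psme2 had log2 ratios of 0.16 and 0.04. After adjustment for GC content and length, Calr and Erap1 remained more than 2-fold lower, at −1.77 and −1.29. These were 2 of the 10, against 12% of genes, and 0 were higher, against 9.34%. Psme2 shared 51.7% of its windows with its copy Psme2b, and Erap1 13.6% with the overlapping gene Cast, so both counts are uncertain.

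All 14 constitutive proteasome core genes were counted, and all 14 were within 2-fold and higher in library 2, against 38.5% of all counted genes higher, with a median log2 ratio of 0.37. Their transcripts had a median length of 1163 bases. After adjustment for GC content and length their median was 0.20, and 49.8% of all genes were higher. The adjusted log2 ratios of the 14 ran from −0.17 to 0.62, so not all stayed higher. Before adjustment their log2 ratios ran from 0.12 to 0.67. Of the immunoproteasome subunits, Psmb8 at 0.15 lay within that range, Psmb10 at −0.05 below it and Psmb9 at 0.70 just above it.

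Of 20 genes that act upstream of class I, all were counted, 14 were lower in library 2 against 61.5% of all counted genes, 5 were more than 2-fold lower against 25.9%, and 0 were more than 2-fold higher against 5.74%. These shares lie near those of all genes. After adjustment for GC content and length 2 of the 20 were more than 2-fold lower, against 12% of genes, and 1 higher, against 9.34%. Those past 2-fold before adjustment were Rfx5 (13.6 and 2.97 CPM), an RFX subunit gene of the X box complex, Irf2 (73.6 and 30.3 CPM), Stat2 (34.6 and 9.43 CPM), the NF-κB subunit gene Rela (257 and 125 CPM) and the interferon receptor gene Ifnar1 (118 and 55.0 CPM). Of these, Rfx5 (−1.27) and Irf2 (−1.35) stayed more than 2-fold lower after adjustment. The 1 gene then higher was Nfkb1, also an NF-κB subunit gene, with 154 and 187 CPM and an adjusted log2 ratio of 1.47. The other RFX subunit genes Rfxap and Rfxank had log2 ratios of −0.62 and −0.16. Irf1, a direct activator of class I genes, had 124 and 160.0 CPM. The most abundant was Ifngr1, a chain of the interferon-γ receptor, at 1724 and 1946 CPM. The median log2 ratio of the 20 was −0.58, and −0.10 after adjustment for GC content and length.

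Class II genes were abundant in the same libraries. Summed over 8 genes they took 0.350% and 0.386% of counts, against 0.540% and 0.778% for the 10 class I genes. H2-Ab1, a class II β chain, had 911 and 1155 CPM, and Cd74, the invariant chain gene, 1334 and 953 CPM. Of the 8, 1 was more than 2-fold lower in library 2, against 25.9% of all counted genes: Ciita, with 8.60 and 4.13 CPM. Its log2 ratio of −1.06 became 0.44 after adjustment for GC content and length. No class II gene was then past 2-fold, against 12% of genes lower and 9.34% higher. Interferon-stimulated genes outside the MHC summed to 687 and 574 CPM over 16 genes, of which 15 were counted, 4 were more than 2-fold lower in library 2 (Ifit1, Ifit2, Irf7 and Rsad2), against 25.9% of all counted genes, and 1 was more than 2-fold higher (Cxcl10), against 5.74%. Irf7, a factor of the interferon response, had 84.0 and 37.0 CPM, and Cxcl10, a chemokine gene, 7.23 and 16.0 CPM. The median log2 ratio of the interferon-stimulated genes was −0.70, while that of the 10 class I genes was 0.19 and that of all counted genes −0.26. After adjustment for GC content and length these medians were −0.42, 0.43 and 0. Of the 15 interferon-stimulated genes, 5 were then more than 2-fold lower, against 12% of genes, and 0 higher, against 9.34%.

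Receptors for class I molecules, and the related receptor gene Lilr4b, were read as well. Pirb, an inhibitory receptor of myeloid cells that binds class I, had 58.4 CPM in library 1 and 119.9 in library 2. Lilr4b had 20.5 and 53.3 CPM, and Klrk1, which encodes the NKG2D receptor for class I-like stress ligands, had 0.941 and 2.48 CPM. Of the 4 receptor genes counted, these 3 were more than 2-fold higher in library 2, against 5.74% of all counted genes. Library 2 also had higher sums of neutrophil, NK cell and monocyte markers, the last mostly from Chil3 and Ly6c2. The part of other cells in these receptor differences was not tested. Klrd1, whose product CD94 helps to read Qa-1, had 62 and 192 counts. The coreceptor genes Cd8a and Cd8b1 of CD8 T cells had 0 counts in both libraries, which allows 0.128 CPM in library 1 and 0.0729 CPM in library 2.

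**Figure D5:**
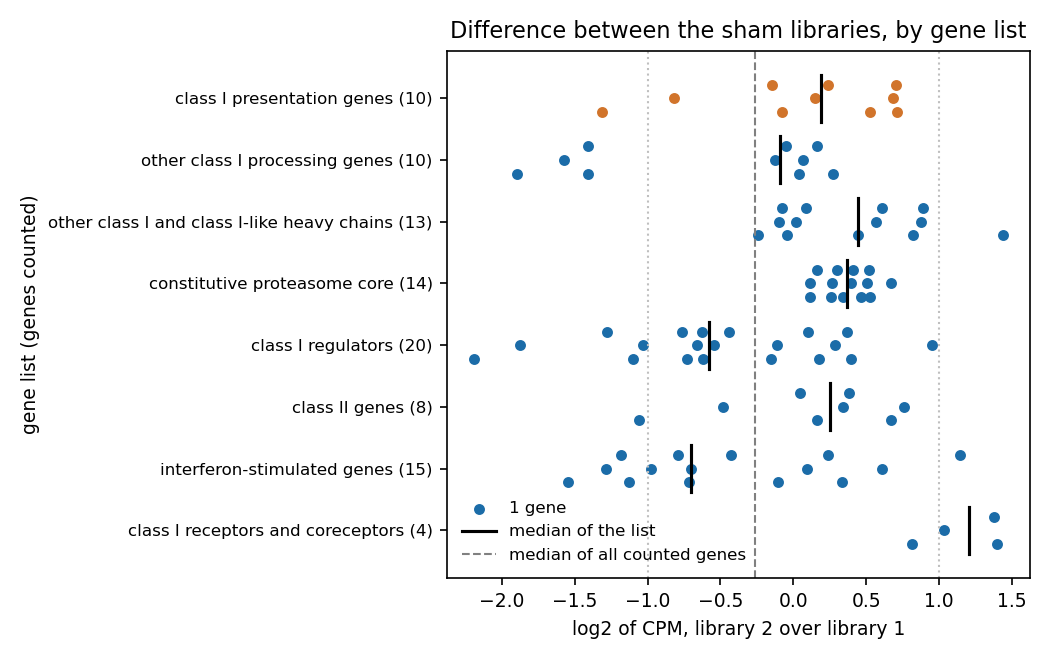
Log2 ratio of CPM, library 2 over library 1, for every counted gene of 8 lists, with each list's median as a bar and the median of all counted genes as a dashed line at −0.26. The 10 class I presentation genes centre on 0.19, the 14 constitutive proteasome core genes on 0.37 and the 15 interferon-stimulated genes on −0.70.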

How the data were processed

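RNA-seq of FACS-sorted microglia was analysed from 2 sham libraries, taken as separate mice because the series says that each sample is 1 mouse brain. Per the study's methods, cDNA was made with the SMART-Seq HT Kit from total RNA and sequenced as paired 75-base reads, and the authors mapped reads to GRCm38 with HISAT2 and counted them with HTSeq. The files as deposited hold whole-number counts by Ensembl gene, not normalized. Tool versions, annotation and strandedness are not given in the sources used here. The authors' table of comparisons was not used.

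A level is a gene's count per 1000000 counts assigned in its library (CPM). Starts, which the files count from 0, are given from 1. Symbols were matched for 53620 of 53801 identifiers, and lengths, GC content and exons are those of GENCODE M21 (GRCm38). Fold intervals are exact binomial intervals of the 2 counts. No test was run, since the design holds 1 group. The adjustment subtracts the median log2 ratio of counted genes in the same of 10 bins of GC content and 10 of length. It was tested on simulated data with 200 changed genes, without drift and with a drift in transcript length. A drift in GC content was not simulated. Scaling used edgeR 4.0.16 (TMM) and DESeq2 1.42.0 in R 4.3.3, and other steps Python 3.11.15, numpy 2.4.6, pandas 2.3.3, scipy 1.17.1 and matplotlib 3.10.9. All members are named, and of longer lists the most abundant genes, those with no counts and those past 2-fold. Rfxap, Rfxank, Irf1, H2-M3, Mr1, H2-Q2, H2-T22 and Nfkb1, which was past 2-fold only after adjustment, fall outside this rule and were chosen after their values were seen. The members and lists were chosen with earlier results of these data known. One gene of the lists is not reported here by name.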

Additional observations from a re-analysis of the deposited data

How the results depend on the processing

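With 2 libraries of 1 group, every mean rests on 2 mice, no difference between conditions can be read, and leaving out 1 library always stays within 1 SD. No paired analysis was possible because both libraries are of 1 group. The mean level of each of the 10 genes and of their sum (6588 CPM) stayed within 1 SD under TMM, DESeq2 size factors, a total that leaves out mitochondrial transcripts and one that leaves out neutrophil markers.

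The median log2 ratio of the 10 genes, 0.19, was 0.45 with TMM, 0.47 with DESeq2 size factors and 0.43 after the GC and length adjustment. That adjustment reversed the log2 ratio of Nlrc5 to 0.037, and it changed the number of genes more than 2-fold lower in library 2 from 1 to 0 and the number higher from 0 to 2. Across the scalings the log2 ratio of Nlrc5 ran from −1.32 to −1.04. The share of genes more than 2-fold higher in library 2, 5.74%, was 10.1% with at least 1 count in each library and 3.15% with at least 100 in both.

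With the exon union as length, the mean ratio of Psmb8 to Psmb5 reversed from 1.21 to 0.582, because the union adds more to Psmb8. H2-D1 over H2-K1 became 3.72, H2-D1 over H2-T23 6.28, B2m over H2-D1 4.48, B2m over the 3 heavy chains 3.12, Tap2 over Tap1 2.04, Tapbp over Tap1 12.3, Psmb8 over Psmb9 2.07, Psmb10 over Psmb7 14.9 and Nlrc5 over Ciita 0.862. The other 3 ratios moved by less than 1 SD.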
